A study of Mus musculus with 6 samples.

Results

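The genes described here are 10 mouse genes of the inflammasome and of the inhibitor-of-apoptosis (IAP) family: Pycard, Naip1, Naip2, Naip5, Casp1, Nlrp3, Xiap, Birc2, Birc3 and Birc5. They were taken from the array by current symbol or older alias (Naip1, Naip2 and Naip5 are listed there as Birc1a, Birc1b and Birc1e, Nlrp3 as Cias1 and Xiap as Birc4), and every probe of each gene was used. This gave 15 probes among 41174 on the array, for 10 of 27670 gene names. The members were chosen by rule with the signals and detection flags of the same comparison known, so their differences are given as descriptions. How many of them passed the threshold of the fit over all probes is printed for orientation and supports nothing here.

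Expression was measured with Cy3 on single-colour Agilent arrays in 2 lines derived from the S49 mouse T cell lymphoma. The lines were MR 4-25, recovered from mannitol, and Neo, the parental line, with 3 arrays each. Both were cultured without treatment in the same serum-containing RPMI medium, so no array shows cells under mannitol. Each condition is a single line, so recovery from mannitol and whatever else separates the lines cannot be told apart. The labels do not say whether the 3 samples of a line came from separate cultures, and the spread between them may be technical.

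Inflammasomes are complexes in which a sensor, such as NLRP3, gathers the adaptor ASC, encoded by Pycard, and through it caspase-1, encoded by Casp1. Caspase-1 then cleaves pro-interleukin-1β, pro-interleukin-18 and gasdermin D. In the mouse, NAIP proteins bind bacterial flagellin or type III secretion components and engage the sensor NLRC4. NAIPs carry the baculovirus IAP repeat (BIR) that also defines XIAP, an inhibitor of caspases, cIAP1 and cIAP2 (Birc2 and Birc3), ubiquitin ligases of TNF receptor signalling, and survivin (Birc5), a subunit of the mitotic chromosomal passenger complex. Inflammasome genes are best known from macrophages and other myeloid cells.

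The 75th percentile of the processed signal, by which each array was scaled, was 872, 912 and 521 on the MR 4-25 arrays and 988, 844 and 917 on the Neo arrays, in replicate order. MR 4-25 replicate 3 was the dimmest, with 61.3% of probes well above background against 69.9% to 76.3% on the other arrays. Replicates 1 and 2 of both lines shared a slide, and replicate 3 of both lines lay on a second slide, so slide and replicate number 3 cannot be told apart. All 12 T cell markers examined were well above background on all 6 arrays. In limma 1 of them passed, Cd247, which encodes the CD3ζ chain, lower in MR 4-25 (log2 difference −4.06, limma adjusted p = 0.026, not past the threshold with replicate number as a block). The summed relative signal of the 12 was 275 to 303 in MR 4-25 and 309 to 347 in Neo. An unadjusted p under 0.05 was reached by 4: Cd247, Lat (−0.81), Lck (−0.51) and Cd2 (1.04). The median log2 difference of the 12 was −0.13. Of 18 myeloid markers, 9 were well above background on all 6 arrays and 2, S100a8 and Csf3r, on none. Their summed relative signal was 4.65 to 5.27 in MR 4-25 and 3.29 to 3.80 in Neo, a sum over the list that is compared between lines alone. Fcgr3 alone gave 1.78, 1.24 and 2.37 of that sum in MR 4-25, against 0.887, 0.794 and 1.07 in Neo. Of the 15 that were tested, 0 passed in limma and 4 had an unadjusted p under 0.05, all higher in MR 4-25. They were Lyz1 and Lyz2, with log2 differences of 1.00 and 1.06 (limma adjusted p = 0.054 and 0.0522), Cd68 (0.75) and Fcgr3 (0.93). Tested markers that were lower in MR 4-25 were Cd14 (−1.03), S100a9 (−0.60), Fcer1g (−0.59), Itgam (−0.43) and Ly86 (−0.15). The 15 differences centred on a median of 0.27. The summed relative signal of 7 B cell markers was 1.09 to 1.67 in MR 4-25 and 0.836 to 1.03 in Neo, with 0 past the threshold in limma and 2 at an unadjusted p under 0.05. That of 8 stromal and epithelial markers was 0.976 to 1.76 in MR 4-25 and 1.01 to 1.58 in Neo, with 0 of 6 tested past the threshold in limma and 1 at an unadjusted p under 0.05. The part of any such signal in the results that follow was not tested. The share of all genes with an unadjusted p under 0.05 is not given here, so no excess is read from counts at that level.

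The probes that carry the largest differences are shown first, 5′ to 3′ as listed in the files, with positions on mouse build mm7 from the array annotation. Both Pycard probes lie on the minus strand of chromosome 7, at chr7:124089285-124089344 (A_51_P438821) and chr7:124089265-124089324 (A_51_P438820). They overlap by 40 bases, in capitals, and are therefore not independent measurements.
Pycard A_51_P438821: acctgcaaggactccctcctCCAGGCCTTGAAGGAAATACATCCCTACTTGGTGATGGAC
Pycard A_51_P438820: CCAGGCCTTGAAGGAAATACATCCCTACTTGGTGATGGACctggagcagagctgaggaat
The Casp1 probe A_51_P142861 is annotated to the plus strand at chr9:5223467-5223969, a span longer than the probe itself.
Casp1 A_51_P142861: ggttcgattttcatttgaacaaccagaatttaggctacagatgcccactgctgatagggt
The NAIP genes are close paralogs, so the first 30 bases of their probes are set side by side. The probes lie on the minus strand of chromosome 13, at chr13:97215683-97215742 (Naip2), chr13:97285457-97285516 (Naip5) and chr13:97495859-97495918 (Naip1).
Naip2 A_51_P265026: ggatgaagtggaagattactggcaggtcca
Naip5 A_52_P300786: gggtggggggatattgggcttagagaaaac
Naip1 A_51_P289392: aatctatgagttttatgaactctctagggg
Over the whole probes, the edit distance was 31 between Naip2 and Naip5, 35 between Naip1 and Naip2 and 40 between Naip1 and Naip5. These distances compare the probes with each other and do not say whether a probe also detects a paralog's transcript. Whether a probe lies in an exon or a UTR was not analysed here.

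All 15 member probes passed the detection filter, which asked for signal well above background on 3 or more of the 6 arrays. Of them, 12 were well above background on all 6. In the fit over all 30965 kept probes, 3 member probes fell below an adjusted p of 0.05, all lower in MR 4-25 (both Pycard probes and Naip2), beside 1.3% of all kept probes, 0.694% higher and 0.601% lower. A further description is whether the 3 arrays of one line lie outside the range of the other line: 4 member probes were lower and 4 higher in MR 4-25 without overlap, and 7 overlapped, beside 14.4% lower and 10.8% higher over all kept probes. Since the same contrast chose the genes, nothing is read from these counts. The median log2 difference was −0.10 over the 15 probes and −0.02 over all kept probes. Signals below are relative signals, the processed signal divided by the array's 75th percentile, so that 1 is that percentile; they are compared between lines for a probe, never between probes.

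**Figure D1:**
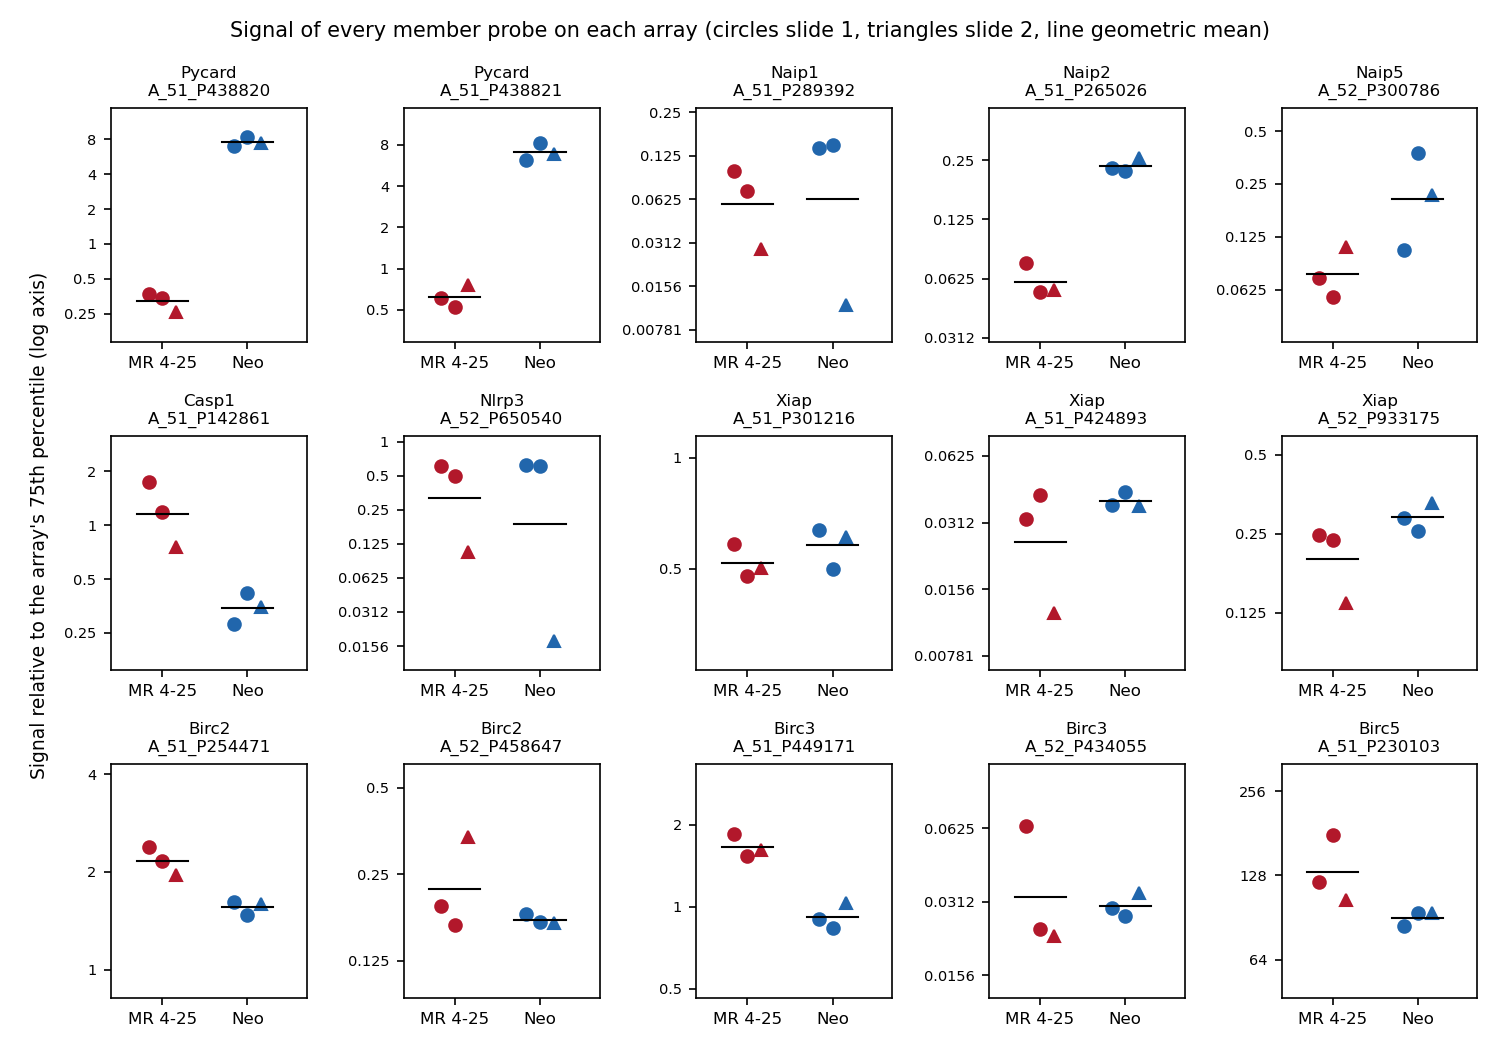
Relative signal (log scale, 1 is the array's 75th percentile) of each member probe on each array, MR 4-25 left of Neo, circles marking slide 1 arrays, triangles slide 2 arrays and lines the mean of the log2 values. Both Pycard probes lie at 0.763 or lower on every MR 4-25 array and at 6.16 or higher on every Neo array, while Casp1 lies above every Neo array on all 3 MR 4-25 arrays.

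The adaptor gene Pycard differed most of the members. Probe A_51_P438820 had relative signals of 0.372, 0.339 and 0.256 in MR 4-25, against 6.97, 8.31 and 7.48 in Neo. Every MR 4-25 array was far below every Neo array. On the log2 scale the mean was −1.65 ± 0.28 in MR 4-25 and 2.92 ± 0.13 in Neo (SD, n = 3 each), a difference of −4.57 ± 0.20 (SE) or 23.8-fold lower, the 17th lowest of the 30965 kept probes. Probe A_51_P438821 had relative signals of 0.607, 0.525 and 0.763 in MR 4-25, against 6.16, 8.27 and 6.91 in Neo. The overlapping probe also put every MR 4-25 array below every Neo array, with a smaller gap, −3.50 ± 0.21 (SE) or 11.3-fold lower, the 45th lowest. The gap was present on each slide: −4.42 on slide 1 and −4.87 on slide 2 for A_51_P438820, and −3.66 on slide 1 and −3.18 on slide 2 for A_51_P438821. Both probes were well above background on all 6 arrays, so Pycard signal was lower in MR 4-25 but detected there.

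The NAIP genes, sensors of bacterial proteins, were dim in both lines. Naip2, known in the mouse for binding the inner rod protein of type III secretion systems, had relative signals of 0.0751, 0.0537 and 0.0546 in MR 4-25, against 0.227, 0.220 and 0.256 in Neo. All MR 4-25 arrays were below all Neo arrays. The log2 mean was −4.05 ± 0.27 in MR 4-25 and −2.10 ± 0.11 in Neo (SD, n = 3 each), a difference of −1.95 ± 0.20 (SE) or 3.88-fold lower, and it was −1.82 on slide 1 and −2.23 on slide 2. With normexp background correction, which raises dim signals, it was −1.08 after quantile normalization and −0.55 after scaling to the 75th percentile, where the median over all kept probes was 0.35.

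Naip5, known in the mouse as a flagellin sensor, had relative signals of 0.0727, 0.0569 and 0.110 in MR 4-25, against 0.105, 0.376 and 0.216 in Neo. The lines overlapped, because MR 4-25 replicate 3 was above Neo replicate 1. The difference was −1.41 ± 0.53 (SE), 2.66-fold lower. Naip1, known in the mouse for binding the type III secretion needle protein, had relative signals of 0.0977, 0.0716 and 0.0285 in MR 4-25, against 0.142, 0.149 and 0.0116 in Neo. It was well above background on 2 of 3 arrays in each line, the replicate 3 arrays were lowest in both, and the difference was −0.10 ± 1.15 (SE). Its sign differed between slides, at −0.80 on slide 1 and 1.30 on slide 2. Across the NAIP genes measured here, the difference was therefore outside the spread between arrays for Naip2 alone, and whether the 3 genes differ from each other was not tested.

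In the RefSeq gene table these genes lie in the order Naip2, Naip5, Naip6, Naip3, Naip1. The kept Naip6 probe had relative signals of 0.0116, 0.00456 and 0.480 in MR 4-25, against 0.0150, 0.283 and 0.210 in Neo. It was well above background on 1 MR 4-25 array and 2 Neo arrays, and the difference of −1.71 ± 2.12 (SE) did not pass (limma adjusted p = 0.777). A probe assigned to Naip3 was not well above background on any array, and Naip4 and Naip7 were not analysed here. Nlrc4, whose product is the partner through which NAIPs act, was well above background on 0 MR 4-25 arrays and 1 Neo array and was not kept.

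**Figure D2:**
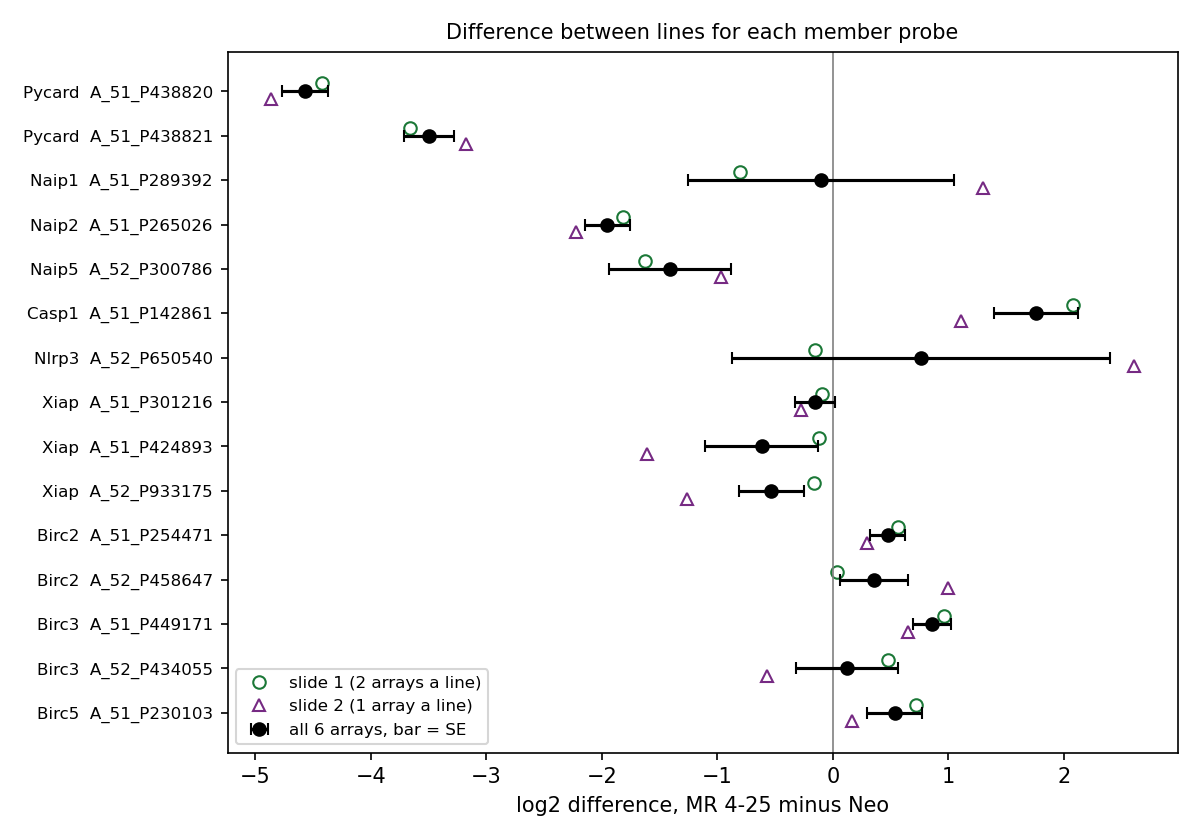
Log2 difference, MR 4-25 minus Neo, of each member probe, with its SE from the fit over all kept probes and the differences within slide 1 and within slide 2. The Pycard and Naip2 differences lie on the same side on both slides, while those of Naip1, Nlrp3 and Birc3 A_52_P434055 change side between slides.

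Casp1, the effector protease of the inflammasome, went the other way from Pycard. Its relative signals were 1.76, 1.19 and 0.750 in MR 4-25, against 0.279, 0.417 and 0.347 in Neo. Every MR 4-25 array was above every Neo array, with MR 4-25 replicate 3 the lowest of its line. The log2 mean was 0.22 ± 0.61 in MR 4-25 and −1.54 ± 0.29 in Neo (SD, n = 3 each), a difference of 1.76 ± 0.36 (SE) or 3.38-fold higher, 2.08 on slide 1 and 1.11 on slide 2. It was the 251st highest difference of the kept probes.

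Nlrp3, the sensor of potassium efflux and membrane damage, was lowest in each line on the slide 2 array, which is also replicate 3. Its relative signals were 0.613, 0.502 and 0.106 in MR 4-25, against 0.626, 0.612 and 0.0173 in Neo. On slide 1 the lines differed by −0.16, and on slide 2, where both were lower, by 2.61, for an overall 0.76 ± 1.64 (SE). From slide 1 to slide 2 the log2 signal of Nlrp3 differed by −2.39 in MR 4-25 and −5.16 in Neo, and that of Naip1 by −1.55 in MR 4-25 and −3.65 in Neo. These were the 2 of 15 member probes that were lower on slide 2 by at least 1 log2 unit in both lines, as were 2804 of all kept probes (9.06%). In the other direction, 0 member probes and 2245 of all kept probes (7.25%) were higher on slide 2 by at least 1 log2 unit in both lines. For both genes the slide 2 values decide the overall difference, and the cause of the gap was not tested.

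**Figure D3:**
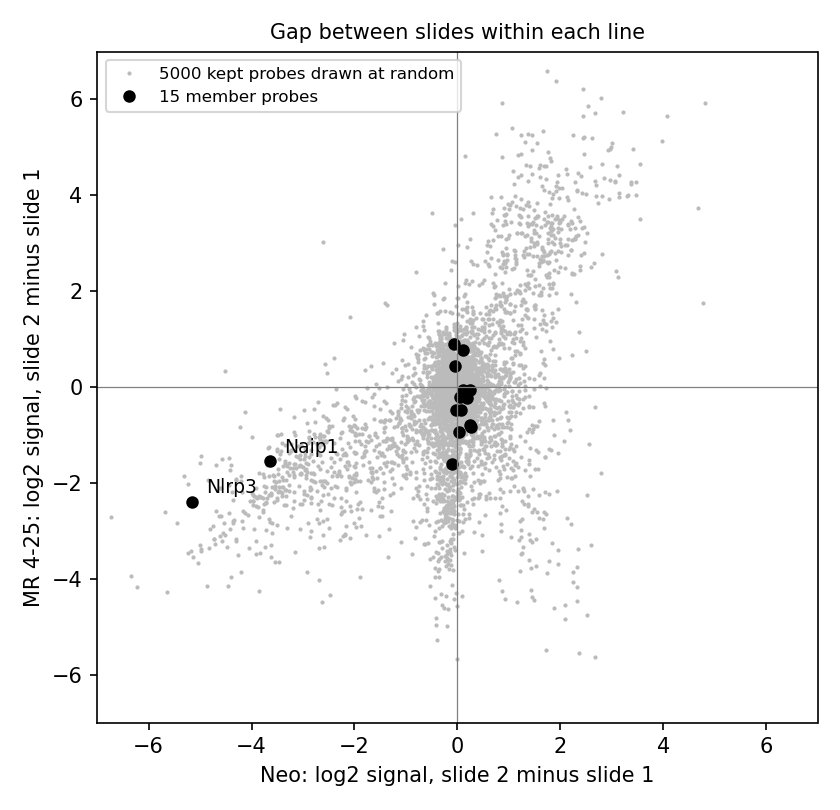
Log2 signal on slide 2 minus slide 1 in MR 4-25 (vertical axis) and in Neo (horizontal axis), for member probes and a random draw of kept probes in grey. Nlrp3 and Naip1 lie in the lower left, among the 9.06% of kept probes that were lower on slide 2 by at least 1 log2 unit in both lines.

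Of the IAP genes, Birc3 and Birc2, neighbours on chromosome 9, were higher in MR 4-25 with 1 probe each. Birc3 probe A_51_P449171 had relative signals of 1.86, 1.53 and 1.62 in MR 4-25, against 0.903, 0.834 and 1.03 in Neo. The lines did not overlap. The log2 mean was 0.73 ± 0.14 in MR 4-25 and −0.12 ± 0.15 in Neo (SD, n = 3 each), a difference of 0.86 ± 0.17 (SE) or 1.81-fold higher. Relative to the median over all probes, this difference was 0.32 with normexp and the 75th percentile, against 0.88 as reported. The second Birc3 probe, A_52_P434055, was dim and well above background on 2 of 3 MR 4-25 arrays. Its relative signals were 0.0638, 0.0243 and 0.0228 in MR 4-25, against 0.0295, 0.0273 and 0.0339 in Neo, which overlap, with a difference of 0.12 ± 0.44 (SE).

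Birc2 probe A_51_P254471, which lies 22758 bases from the brighter Birc3 probe on mm7, had relative signals of 2.39, 2.17 and 1.96 in MR 4-25, against 1.61, 1.47 and 1.60 in Neo. Here too all MR 4-25 arrays were above all Neo arrays, by 0.47 ± 0.15 (SE) on the log2 scale or 1.39-fold, and at −0.02 relative to the median over all probes with normexp and the 75th percentile. The probe A_52_P458647, named C330006D17Rik on the array, which RefSeq lists as a Birc2 synonym, lies between the Birc2 and Birc3 probes. It had relative signals of 0.194, 0.167 and 0.336 in MR 4-25, against 0.182, 0.170 and 0.169 in Neo, and its difference of 0.35 ± 0.30 (SE) rests on MR 4-25 replicate 3, with 0.03 on slide 1.

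Birc5, the mitotic survivin gene, had relative signals of 121, 178 and 105 in MR 4-25, against 84.3, 94.1 and 93.8 in Neo. The lines did not overlap, but MR 4-25 replicate 2 stood well above its own line. The difference was 0.53 ± 0.24 (SE) or 1.45-fold, with 0.72 on slide 1 and 0.16 on slide 2, and it was 0.32 without MR 4-25 replicate 2. Relative to the median over all probes it was −0.13 with normexp and the 75th percentile.

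Xiap, the direct caspase inhibitor, was measured by 3 probes. Probe A_51_P301216 had relative signals of 0.583, 0.478 and 0.503 in MR 4-25, against 0.636, 0.499 and 0.608 in Neo, which overlap. Probe A_52_P933175 had 0.247, 0.237 and 0.136 in MR 4-25, against 0.287, 0.257 and 0.328 in Neo, without overlap. Probe A_51_P424893 had 0.0325, 0.0417 and 0.0121 in MR 4-25, against 0.0374, 0.0428 and 0.0371 in Neo. The 3 differences were −0.15 ± 0.18, −0.53 ± 0.28 and −0.62 ± 0.49 (SE) in that order, all lower, though A_51_P424893 was at 0.37 relative to the median with normexp and the 75th percentile. On slide 1 alone they were −0.09, −0.16 and −0.12, so the larger gaps of A_52_P933175 and A_51_P424893 rest on MR 4-25 replicate 3, the dimmest array.

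Which member probes passed depended on the fit, and nothing is read from these counts either. With replicate number as a block, 0 of the 15 passed, and 0.00323% of all kept probes did. With slide as a block, 3 passed, both Pycard probes and Naip2, and 1.55% of all kept probes did. Same-slide arrays of different replicate number correlated at 0.359 and 0.411 in their deviations from the line means, and the same-number arrays of slide 1 at 0.293 and 0.209, so replicate number may stand for no more than the slide. Without Neo replicate 2, 0 member probes passed, and 0.0194% of all kept probes did. With Neo 1, Neo 3, MR 4-25 1 or MR 4-25 2 left out, only Pycard A_51_P438820 passed among the members. Of all kept probes, 0.0872%, 0.178%, 0.0678% and 0.113% passed in that order, against 1.3% with all arrays. The filter on all 6 arrays left 12 member probes and added Birc3 A_51_P449171, so that 4 passed, beside 3.37% of all probes under that filter. The trended robust fit added that probe and Casp1, so that 5 passed, beside 3.16% of all kept probes. With array quality weights 7 passed, adding Birc2 A_51_P254471, Birc3 A_51_P449171, Birc5 and Casp1, at 9.66% of all kept probes.

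Genes that work with the members were examined in 7 lists, by the brightest probe of each gene and in the same fit. Over the 21341 genes tested, 0.731% were higher and 0.604% lower, and the median log2 difference was 0.01. As for the markers, no excess is read from the counts at an unadjusted p under 0.05. No gene of the lists was well above background on all arrays of one line and on none of the other. With replicate number as a block, 0 genes of the 7 lists passed, and with slide as a block 4 did.

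Among 21 tested regulators of inflammasomes, 1 was higher, 1 lower and 19 did not pass, with a median log2 difference of 0.04. Of the 21, 4 had an unadjusted p under 0.05. Pstpip1, which encodes a cytoskeletal adaptor that binds pyrin, had relative signals of 0.234, 0.209 and 0.208 in MR 4-25, against 1.60, 1.49 and 1.64 in Neo. It fell by 2.86 ± 0.14 (SE) on the log2 scale, 7.28-fold (limma adjusted p = 0.00498). Gbp2, an interferon-induced GTPase that acts on bacteria in the cytosol, had relative signals of 1.18, 0.887 and 0.933 in MR 4-25, against 0.243, 0.209 and 0.255 in Neo. It rose by 2.08 ± 0.18 (SE), 4.22-fold (limma adjusted p = 0.0156). For both genes the arrays of the lines were far apart.

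Of 14 tested inflammasome effectors and products, 0 passed in either direction in limma, 2 had an unadjusted p under 0.05, and the median was −0.03. Il18, which encodes the caspase-1 substrate interleukin-18, had relative signals of 0.399, 0.368 and 0.442 in MR 4-25, against 0.116, 0.187 and 0.119 in Neo. The difference of 1.55 ± 0.24 (SE) missed the threshold (limma adjusted p = 0.0646). Casp4, the mouse caspase-11 gene of the non-canonical inflammasome, is added after its values were seen: 0.529, 0.313 and 0.327 in MR 4-25, against 0.0164, 0.0517 and 0.0616 in Neo. It was well above background on 3 MR 4-25 and 2 Neo arrays, with a difference of 3.34 ± 0.57 (SE) (limma adjusted p = 0.0795).

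The list of other sensors also held related genes, such as Dpp8 and Dpp9. Of its 13 tested genes, 0 passed in limma and 1 had an unadjusted p under 0.05, with a median of −0.12. The largest difference among those detected on every array was that of Nlrx1, a mitochondrial NLR protein. Its relative signals were 0.410, 0.442 and 0.287 in MR 4-25, against 1.09, 0.715 and 0.805 in Neo, a difference of −1.20 ± 0.26 (SE; limma adjusted p = 0.136). Aim2, the sensor of cytosolic DNA, was not well above background on any array.

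Partners of the cIAPs in TNF receptor and NF-κB signalling gave 2 higher and 0 lower of 26 tested, and 24 that did not pass, with a median of 0.01. Their differences ran from −0.65 to 2.07, and 7 had an unadjusted p under 0.05. Traf1, an adaptor that binds TRAF2 and the cIAPs, had relative signals of 3.18, 2.47 and 4.09 in MR 4-25, against 0.816, 0.822 and 0.645 in Neo. It rose by 2.07 ± 0.24 (SE), 4.21-fold (limma adjusted p = 0.0312). Relb, a subunit of non-canonical NF-κB, had relative signals of 10.5, 8.17 and 10.9 in MR 4-25, against 3.66, 3.63 and 3.76 in Neo. It rose by 1.41 ± 0.17 (SE), 2.65-fold (limma adjusted p = 0.0339).

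Of 10 tested IAP antagonists and caspase targets, 0 passed in limma and 3 had an unadjusted p under 0.05, with a median of −0.14. The list also held genes outside these classes, such as Bcl10, whose product links antigen receptors to NF-κB. The largest difference among those detected on every array was that of Bcl10. Its relative signals were 11.6, 12.4 and 13.0 in MR 4-25, against 7.24, 6.75 and 6.19 in Neo, a difference of 0.88 ± 0.15 (SE; limma adjusted p = 0.0751). Of 3 other NAIP and IAP family genes tested, 0 passed in limma and 0 had an unadjusted p under 0.05. Of the 2 of them detected on every array, Birc7, which encodes livin, differed by 0.51 ± 0.78 (SE; limma adjusted p = 0.827).

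Survivin's partners in the chromosomal passenger complex and mitosis stayed close to 0: of 13 tested, 0 passed in limma and 0 had an unadjusted p under 0.05, and their differences ran from −0.24 to 0.35 with a median of 0.05. The highest was that of Ccnb1, cyclin B1, with relative signals of 12.3, 12.5 and 13.0 in MR 4-25, against 10.5, 8.85 and 10.5 in Neo (limma adjusted p = 0.387).

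**Figure D4:**
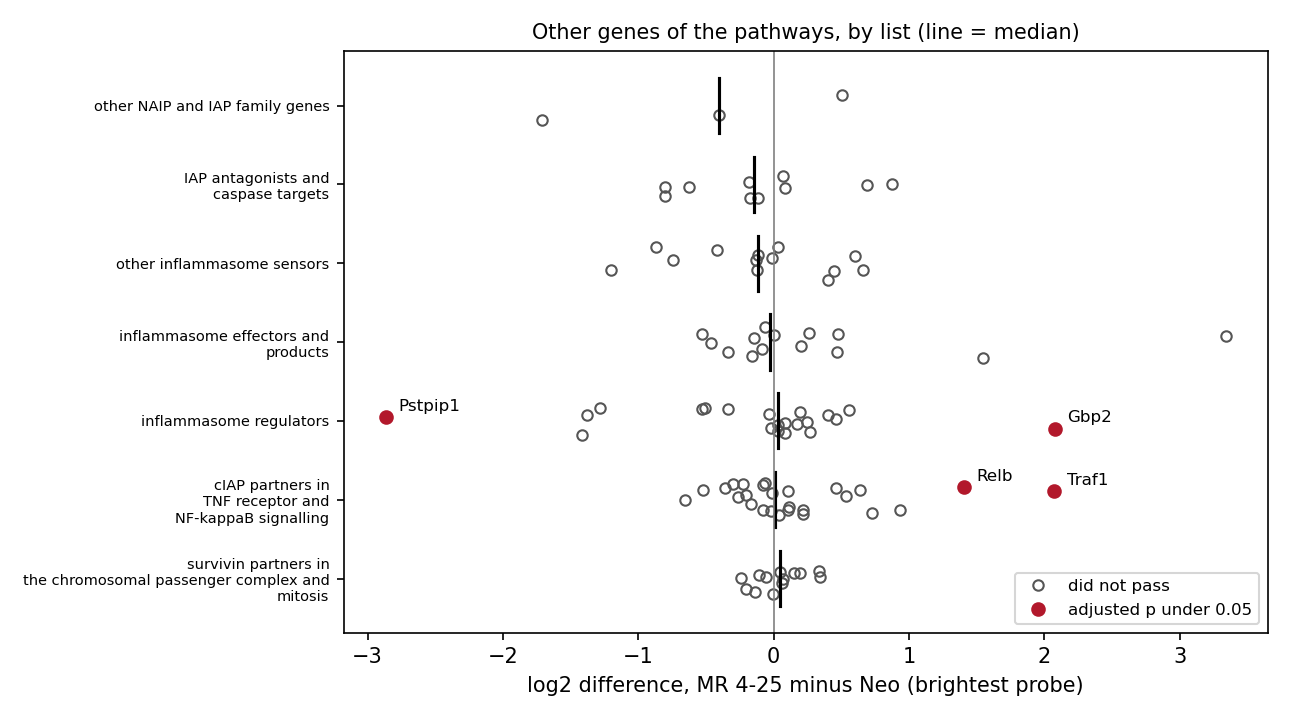
Log2 difference, MR 4-25 minus Neo, of every tested gene of the 7 pathway lists, one row per list, with the list median and the genes past the threshold marked. The 4 marked genes are Gbp2, Traf1 and Relb, above 0, and Pstpip1, below 0.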

How the data were processed

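Background-corrected intensity values (gProcessedSignal) were deposited as scanner output of Agilent Feature Extraction, version 9.5 per the submitters' processing notes. The deposited value table held the same numbers. Of the spots on an array, 43379 were for genes and 1639 were controls, which were not used. Outlier spots were masked, replicate spots averaged on the log2 scale, and arrays scaled by subtracting the log2 75th percentile. Of 41174 probes, 34 were dropped because all their spots were masked on an array, and 30965 were kept, each with signal well above background on 3 or more of the 6 arrays. Genes were named through RefSeq names by accession (22973 probes), current symbol (6644) or synonym (3105), and 8452 probes kept the file's name. No genome was used, and the number of arrays limits the precision.

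MR 4-25 was compared with Neo probe by probe with limma 3.58.1 (R 4.3.3; the data.table package, version 1.17.8, jsonlite 2.0.0), by lmFit and eBayes on 3 arrays a line with Benjamini-Hochberg adjustment over all kept probes, threshold 0.05. The procedure was tested on simulated data with independent noise and no slide effect. These arrays do carry slide structure, so that test says nothing about error rates under it. Probe distances were computed with edlib 1.3.9.post1 and figures drawn with matplotlib 3.10.9 and pandas 2.3.3 in Python 3.11.15. The members, the 7 pathway lists, the 4 marker lists and the tests were chosen with earlier results of these data known. Named were every member probe, the 3 genes of largest difference past the threshold in each pathway list (with none past it, the largest one detected on all 6 arrays), list genes detected in 1 line only, and the 3 genes most like Naip2 across arrays. Genes of the Naip cluster, Nlrc4, Aim2, Dpp8, Dpp9, Cd247 and other T cell markers, and myeloid markers are named in addition, after their values were seen.

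The labels give the replicate numbers and no pairing. After subtracting each line's mean, arrays of the same number had correlations of 0.293, 0.209 and 0.553 over the kept probes. A fit with replicate number as a block was therefore run as an alternative. The SE and adjusted p values printed come from the fit without a block. Counts of probes and genes past the threshold are also given with the block. Arrays of different number on the same slide correlated at 0.359 and 0.411, so the numbers may mark the slide alone. Alternatives were median scaling, quantile normalization, normexp (offset 50) with either scaling, either no filter or detection on every array required, the brightest probe, the value table, a trended robust fit, array weights, slide or replicate as a block, slide 1 alone, and each array left out.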

Additional observations from a re-analysis of the deposited data

How the results depend on the processing

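Over all probes, 215 were higher and 186 lower in MR 4-25, and 4 pathway list genes passed. In the same order, the counts were 65, 25 and 2 with normexp and the 75th percentile, 425, 352 and 8 with normexp and quantile normalization, 112, 112 and 2 with no filter, 483, 495 and 8 with a trended robust fit, 1340, 1651 and 13 with array weights, and 85, 87 and 1 on slide 1 alone. With replicate number as a block they were 1, 0 and 0, and with slide as a block 241, 239 and 4. The filter on all 6 arrays gave 401 higher and 350 lower, and the brightest probe per gene gave 119 lower. Leaving out 1 array gave 4 to 128 higher, 2 to 180 lower and 0 to 3 list genes, lowest without Neo replicate 2. No member difference that passed changed sign under any alternative run. Pycard A_51_P438820 lost its call with the replicate block and without Neo replicate 2. Naip2 lost its call under these, with normexp and the 75th percentile (−0.55, where the median of all probes moved to 0.35), on slide 1 alone, and with any array but MR 4-25 replicate 3 left out. Under that normexp setting, relative to the shift in the median, Birc2 A_51_P254471 was at −0.02, Birc5 at −0.13, Naip1 at 0.28 and Xiap A_51_P424893 at 0.37, each of the opposite sign to its reported difference. Causes were not tested. Signals near background limit Naip1, Nlrc4, Xiap A_51_P424893 and Birc3 A_52_P434055. Dim signals also limit Naip2 and Naip5 in MR 4-25, with processed signals of 65.4, 48.9 and 28.4 for Naip2 and 63.3, 51.9 and 57.3 for Naip5. The same holds for Nlrp3 on slide 2, at 55.0 in MR 4-25 and 15.9 in Neo.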

Other observations

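Among 22312 probes well above background on all 6 arrays, the 3 genes with a current symbol whose log2 signal across the 6 arrays was most like that of Naip2 were 4930486L24Rik, with Pearson's r of 0.998, Adgrg3, which encodes an adhesion G protein-coupled receptor, at 0.997, and Atg3, the E2-like enzyme of LC3 lipidation in autophagy, at 0.997. Their log2 differences, MR 4-25 minus Neo, were −2.87, −1.99 and −0.35 in that order. The arrays fall by line, so any probe that separates the lines evenly correlates with Naip2, and the values are a description with no test.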
